A study of Mus musculus with 7 samples.

Results

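A set of 9 genes of inhibitory neurons was followed in mouse brain. Gad1 and Gad2 encode the enzymes that make the transmitter GABA from glutamate, Slc32a1 encodes the transporter that loads GABA into synaptic vesicles, Vip, Sst, Npy and Cck encode precursors of peptides released by classes of interneurons, and Pvalb and Calb2 encode calcium-binding proteins (parvalbumin and calretinin) used as interneuron markers. Their probes were found by gene symbol. The array platform listed 12 probes for the 9 genes, and 10 probes for 8 genes had a value, of 13304 probes for 9009 named genes that had one. The probe of Gad2 and the second probe of Vip were blank on every array, so Gad2 has no level here.

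GABA is the main inhibitory transmitter of the brain. Neurons that use it share the synthesis enzymes and the vesicular transporter, while the peptides and calcium-binding proteins divide them into classes. None of these genes is restricted to cortical and hippocampal interneurons: Purkinje cells of the cerebellum and projection neurons of the striatum are GABAergic, Purkinje cells and interneurons of the cerebellum contain parvalbumin, cerebellar granule cells and olfactory bulb neurons contain calretinin, Vip is also made in the suprachiasmatic nucleus, Npy in the hypothalamus, and Cck in many excitatory neurons of cortex and thalamus.

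The brains were from C57BL/6 mice, female and 5 weeks old in every group, with no brain region named. Untreated mice supplied 1 array. The other 6 arrays came from mice dosed orally each day with a water extract of Ephedra herba, a plant that contains ephedrine and related sympathomimetic alkaloids. Treatment lasted 1, 3 or 10 days at 50 or 1250 mg/kg, and every pairing of length and dose had a single array, so no condition was replicated. How many animals stand behind an array is not stated in the labels. The labels name no vehicle-treated group. Values are log2 intensities after quantile normalization of the deposited values. Where values are paired, 50 mg/kg comes first and 1250 mg/kg second. The base of the deposited logarithm is not stated and was taken as 2, so a difference of 1 is a doubling under that assumption. Levels of different probes are not comparable with each other. Of 8 general neuronal markers 6 had a value, with a mean level of 5.523 on the control and 5.515 to 5.624 on the treated arrays. Tubb3 among them was dim (0.17 on the control). The median of the 6 lay 0.041 to 0.17 above the control on the treated arrays, a difference that does not check the tissue label.

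The peptide genes of this set have a known link to neuronal signalling through cyclic AMP, and the short stretches of promoter that carry the cAMP response element (CRE, TGACGTCA) or its half-site (TGACG, or CGTCA on the other strand) are shown for that reason. They are from RefSeq on GRCm38.p6, read in the direction of the gene, with the motif in capitals. A window from 250 bases before to 50 after the gene start was found for 8 of the 9 genes, all but Calb2.
Sst (chr16:23890855-23890922, minus strand): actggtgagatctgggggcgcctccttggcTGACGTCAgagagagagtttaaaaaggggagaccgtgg
Vip (chr10:5639109-5639173, plus strand): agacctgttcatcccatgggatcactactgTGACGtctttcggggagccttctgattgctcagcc
Cck (chr9:121495707-121495771, minus strand): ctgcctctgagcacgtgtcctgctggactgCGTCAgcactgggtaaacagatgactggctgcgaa
Gad2 (chr2:22622264-22622328, plus strand): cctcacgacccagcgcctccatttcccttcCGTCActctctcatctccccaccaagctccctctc
The full element was found in Sst alone among the 8 genes, and in 1.79% of all 32851 promoter windows. The half-site, which the full element contains on both strands, was found in Gad2, Vip, Sst and Cck, and in 20.8% of all windows. It was not in the windows of Gad1, Slc32a1, Npy or Pvalb. A match describes the letters only. Over the 7 arrays Vip correlated with Sst at 0.824 (Pearson, a description) and with Cck at -0.122. Vip correlated with Gad1, which has no half-site in its window, at 0.856. A part of the motif in these values was not tested.

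No member gene passed the test in any of the 5 comparisons that the design allows (limma, Benjamini-Hochberg adjusted p under 0.05 over 9009 genes). For dose, 0 of 8 passed beside 0.144% of all genes; for day 3 against day 1, 0 of 8 beside 21.1%; for day 10 against day 1, 0 of 8 beside 1.93%; for day 10 against day 3, 0 of 8 beside 10.2%; and for all treated arrays against the control, 0 of 8 beside 0% of all genes. At an unadjusted p under 0.05 the members numbered 2, 4, 3, 4 and 1 in that order, beside 5.32%, 34.5%, 17.9%, 25.1% and 1.8% of all genes. The comparison with the control had no day or dose term, so its spread holds the differences between days and doses. Its 0% therefore does not show that treatment had no effect. A change of at least 1.5-fold from the control, which is a size and no test, was met at 1250 mg/kg by Gad1 and Vip on day 3 (2 of 8, beside 8.2% of all genes) and by Pvalb and Calb2 on day 10 (2 of 8, beside 2.09%). It was met by 0 of 8 on the arrays of day 1 (0.311% and 1.04% of all genes) and at the lower dose of days 3 (7%) and 10 (1.39%). The plot of member levels by day and dose shows all arrays together.

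**Figure D1:**
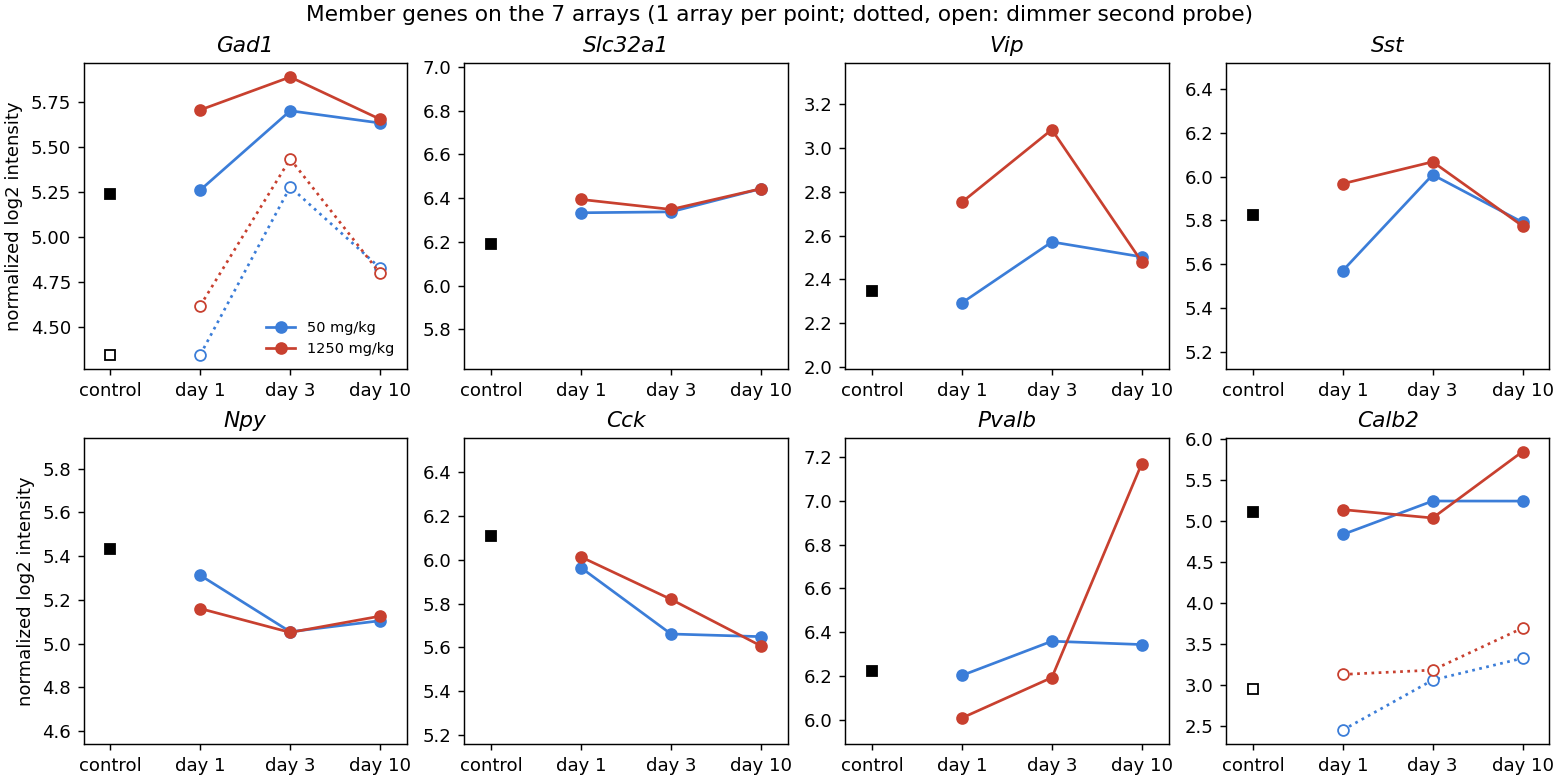
Normalized log2 intensity of each member gene (vertical axes, each spanning at least 1.4 units) on the control array and on days 1, 3 and 10 at 50 and 1250 mg/kg, 1 array per point; dotted lines and open symbols are the dimmer second probes of Gad1 and Calb2. Gad1, Vip and Sst have their highest points on day 3 at 1250 mg/kg, Cck and Npy lie below the control on all 6 treated arrays, and Pvalb and Calb2 have theirs on day 10 at 1250 mg/kg.

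Gad1, which encodes one form of glutamate decarboxylase, was lowest on the control array and highest on day 3. Its brighter probe read 5.23 on the control, then 5.26 and 5.70 (day 1), 5.70 and 5.89 (day 3) and 5.63 and 5.65 (day 10). All 6 treated arrays were above the control, by 0.024 on day 1 at 50 mg/kg and by 0.40 to 0.65 on the others. Against day 1, the difference on day 3 was 0.31 ± 0.12 (± model standard error, 2 arrays per day, limma adjusted p = 0.0714) and that on day 10 was 0.16 ± 0.12 (adjusted p = 0.521). The day 3 difference was 0.028 in the deposited values (adjusted p = 0.896), 0.068 after median scaling (adjusted p = 0.734) and 0.14 without the array of day 1 at 50 mg/kg (adjusted p = 0.416).

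The second Gad1 probe followed the same order of days with a larger step on day 3. It read 4.34 on the control, then 4.34 and 4.62 (day 1), 5.28 and 5.43 (day 3) and 4.83 and 4.80 (day 10). Its day 3 arrays lay 0.87 above those of day 1, against 0.31 for the brighter probe, and they stood clear of all other arrays. Of all genes, 16.7% were likewise higher on both day 3 arrays than on any array of days 1 and 10. Over the 7 arrays the probes correlated at 0.864 (Pearson, a description). When the probes were averaged, Gad1 was 0.59 higher on day 3 than on day 1 and passed the test (adjusted p = 0.00421), so the call depends on the probe. The brighter probe alone passed without the array of day 1 at 1250 mg/kg (0.48, adjusted p = 0.0141). Both probes carry the same transcript accession, and which of the 2 reads better was not tested.

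Slc32a1, the vesicular GABA transporter, had the smallest range among the 8 genes after normalization, though not in the deposited values. It read 6.19 on the control, then 6.33 and 6.39 (day 1), 6.34 and 6.35 (day 3) and 6.44 and 6.44 (day 10). The whole range over the 7 arrays was 0.25. Every treated array was above the control after normalization, by 0.14 to 0.25, but in the deposited values 4 of the 6 (those of days 3 and 10) were below it, by 0.032 to 0.23, so the direction depends on the scaling. Differences were 0.024 ± 0.084 for dose (3 arrays per dose, adjusted p = 0.988) and 0.080 ± 0.10 for day 10 against day 1 (adjusted p = 0.748).

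Vip, the precursor of vasoactive intestinal peptide, was higher at the higher dose on days 1 and 3 and not on day 10. It read 2.35 on the control, then 2.29 and 2.75 (day 1), 2.57 and 3.09 (day 3) and 2.50 and 2.48 (day 10). The dose difference was 0.46 on day 1, 0.51 on day 3 and -0.022 on day 10, which gave 0.32 ± 0.11 in the model (adjusted p = 0.843). Without the day 10 arrays it was 0.49 (adjusted p = 0.0694). The array of day 3 at 1250 mg/kg was 0.74 above the control, the only one past 1.5-fold for this gene. On that array 2 of the 8 members (Gad1 and Vip) were at least 1.5-fold above the control, beside 5.83% of all genes.

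Doc2g and Cdhr1, among the markers of the olfactory bulb, where many GABAergic interneurons lie, were high on the same arrays as Vip. Doc2g, a transcript of bulb projection neurons, was at 1250 mg/kg 1.15 (day 1) and 0.83 (day 3) above the control, beside -0.32 and 0.23 at 50 mg/kg. Cdhr1, another such transcript, was 0.99 and 0.92 above it at 1250 mg/kg and 0.079 and 0.26 at 50 mg/kg. On day 10 both were below the control at both doses. The other measured bulb markers were near the control on day 3 at 1250 mg/kg: Th at 0.059, Sp8 at 0.175, Trh at 0.040 and Dcx at -0.16. The median of the 6 measured bulb markers was 0.42 on day 1 at 1250 mg/kg, where 6 of 6 were above the control, and lay between -0.25 and 0.12 elsewhere. Their part in the Vip values was not tested.

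Sst, the precursor of somatostatin, had its lowest value on day 1 at 50 mg/kg. It read 5.83 on the control, then 5.57 and 5.97 (day 1), 6.01 and 6.07 (day 3) and 5.79 and 5.77 (day 10). The dose difference was 0.40 on day 1 and 0.059 and -0.017 on days 3 and 10. Day 3 differed from day 1 by 0.27 ± 0.12 (adjusted p = 0.118) and day 10 from day 3 by -0.26 ± 0.12 (adjusted p = 0.190). Without the array of day 1 at 1250 mg/kg the first became 0.46 and passed (adjusted p = 0.0147), with a single array left on day 1. In the deposited values that difference was 0.00030.

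Npy, the precursor of neuropeptide Y, was highest on the control array. It read 5.43 there, then 5.31 and 5.16 (day 1), 5.05 and 5.05 (day 3) and 5.10 and 5.13 (day 10). All 6 treated arrays were below the control, by 0.12 to 0.38, and the 4 arrays of days 3 and 10 lay below both of day 1. Of all genes, 35.3% were lower on both day 3 arrays than on both of day 1, and 24.4% for day 10. The treated arrays differed from the control by -0.30 ± 0.13 (6 arrays against 1, adjusted p = 0.999). Day 3 differed from day 1 by -0.18 ± 0.11 (adjusted p = 0.248), and in the deposited values by -0.43, which passed (adjusted p = 0.0153).

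Cck, the precursor of cholecystokinin, was likewise highest on the control, with its lowest values on days 3 and 10. It read 6.11 on the control, then 5.96 and 6.01 (day 1), 5.66 and 5.82 (day 3) and 5.65 and 5.61 (day 10). Day 10 differed from day 1 by -0.36 ± 0.11 (adjusted p = 0.0925) and day 3 from day 1 by -0.25 ± 0.11 (adjusted p = 0.115). The dose differences were small, at 0.050, 0.16 and -0.042 on days 1, 3 and 10. In the deposited values the day differences were -0.61 (adjusted p = 0.0174) and -0.53 (adjusted p = 0.00623), and both passed. Npy and Cck were the only members below the control on all 6 treated arrays, and this held in the deposited values and after median scaling too. Markers of the hypothalamus, where both peptides are made in part, were lower as well: the median of the 8 measured of 13 was below the control on all 6 arrays, by 0.076 to 0.60, and 3 or fewer of the 8 were above it on any array. Avp, the vasopressin precursor of that list, correlated with Npy at 0.964 and with Cck at 0.893 over the 7 arrays. The list was not uniform. For all treated arrays against the control 1 of the 8 differences was positive (Gal, 0.17), while Avp was at -0.95 and Trh at -0.034. Other lists were lower too. The median of the measured endothelial markers was below the control on all 6 arrays, by 0.12 to 0.39. That of microglial markers was 0.20 to 0.60 below it, except on day 1 at 1250 mg/kg (0.0090). From day 1 to day 10, excitatory markers of cortex and hippocampus had 2 of 9 differences positive and a median of -0.18. The general neuronal median was above the control on all 6 arrays. The part of the hypothalamic or any other share of the tissue in the Npy and Cck values was not tested. Of all genes, 13% were below the control on all 6, 11.1% were above it on all 6 and 24.1% were on one side.

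Pvalb, parvalbumin, stood out on 1 array. It read 6.22 on the control, then 6.20 and 6.01 (day 1), 6.36 and 6.19 (day 3) and 6.34 and 7.17 (day 10). The array of day 10 at 1250 mg/kg was 0.95 above the control and 0.83 above the other array of its day, while the remaining 5 treated arrays lay within 0.22 of the control. Day 10 differed from day 1 by 0.65 ± 0.18 (adjusted p = 0.0684), with 0.14 at 50 mg/kg and 1.16 at 1250 mg/kg. It was 0.39 in the deposited values (adjusted p = 0.177) and 0.43 after median scaling (adjusted p = 0.144). Without that array the difference was 0.15 (adjusted p = 0.876), and without the array of day 10 at 50 mg/kg it was 1.16 (adjusted p = 1.51e-08), a value that rests on a single array of day 10. It also passed without the array of day 1 at 50 mg/kg (0.91, adjusted p = 0.0313) and without either array of day 3, which changes only the estimated spread.

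Calb2, calretinin, was highest on the same array. Its brighter probe read 5.12 on the control, then 4.84 and 5.14 (day 1), 5.25 and 5.04 (day 3) and 5.25 and 5.85 (day 10). Day 10 differed from day 1 by 0.56 ± 0.15 (adjusted p = 0.0603), with 0.41 at 50 and 0.71 at 1250 mg/kg, and the 2 arrays of day 10 lay above both of day 1, as for 20.6% of all genes. In the deposited values the arrays of the 2 days overlapped, and the difference was 0.33 (adjusted p = 0.163), or 0.36 after median scaling (adjusted p = 0.123). Without the array of day 10 at 1250 mg/kg the difference was 0.28 and did not pass. The dimmer probe read 2.95 on the control, then 2.45 and 3.13 (day 1), 3.06 and 3.18 (day 3) and 3.33 and 3.69 (day 10), with a day difference of 0.72. The 2 probes correlated at 0.879 over the 7 arrays.

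At 1250 mg/kg on day 10, 2 of the 8 members (Pvalb and Calb2) were at least 1.5-fold above the control, beside 1.43% of all genes, and cerebellar markers were highest there too. Pcp2, a transcript of Purkinje cells, was 5.03 above the control on that array, Cbln1, which encodes cerebellin of granule cells, 2.19, and Rgs8, also high in Purkinje cells, 0.80. The median of the 6 measured cerebellar markers was 2.09 there and 1.06 on the other array of its day. It was 1.21 and 0.69 for the arrays of day 3, and -0.25 and 0.10 for those of day 1. The mean level of the 6 was 1.58 to 1.91 on the control and day 1 arrays and 2.70 to 4.09 on the others. Calb1, Itpr1, Car8 and Gabra6, further cerebellar genes of the list, were among 8 of 14 with no value. Over the 7 arrays Cbln1 correlated with Pvalb at 0.906, with Calb2 at 0.931 and with Cck at -0.867, as a description of values that share arrays. In the same order the coefficients were 0.813, 0.87 and -0.916 for Pcp2, and 0.832, 0.85 and -0.924 for En2, another marker of the list. On day 3 at 50 mg/kg and day 10 at 50 mg/kg the cerebellar median was above 1 while Pvalb was 0.13 and 0.12 above the control. The part of the cerebellar share of the tissue in these values was not tested. In tissue RNA, more cells of a type and more RNA per cell cannot be told apart.

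**Figure D2:**
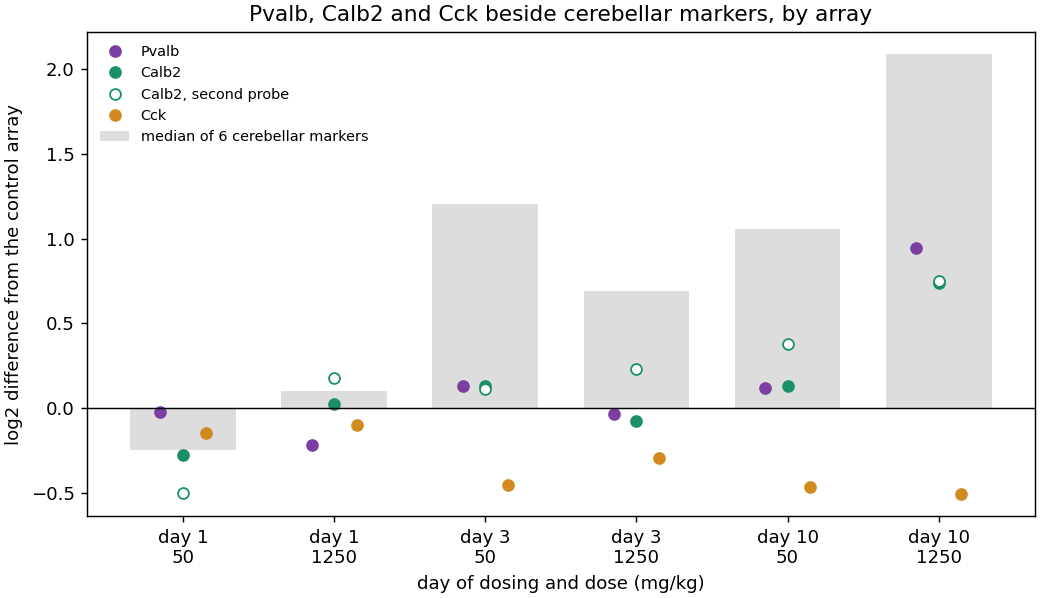
Log2 difference from the control array (vertical axis) on each treated array (horizontal axis, day over dose in mg/kg) for Pvalb, Calb2 (both probes) and Cck as points, beside the median of 6 cerebellar markers as bars, 1 array per position. Bars and the Pvalb and Calb2 points are highest on day 10 at 1250 mg/kg (2.09, 0.95 and 0.74), where Cck is at -0.50.

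The test estimates place the members side by side. For dose, 7 of the 8 differences were positive with a median of 0.15, where 48.6% of all genes were positive with a median of -0.0040. Vip (0.32), Calb2 (0.23 ± 0.12) and Gad1 (0.22 ± 0.10) had the largest. The dose difference of Calb2 was 0.30 on day 1, -0.21 on day 3 and 0.61 on day 10, and that of Pvalb (0.16 ± 0.14) was -0.19, -0.17 and 0.83, so neither held one sign over the days. Gad1 was higher at 1250 mg/kg on all 3 days, by 0.45, 0.19 and 0.021 (12.1% of all genes were higher on all 3), although its second probe was at -0.030 on day 10. The differences of Slc32a1 were 0.061 and 0.011 on days 1 and 3 and 0 on day 10 (in the deposited values Slc32a1 too was higher on all 3 days). Liver genes were higher at 1250 mg/kg too (7 of 9 measured passed in the dose comparison): their median difference from the control was 2.25 on day 1, 0.38 on day 3 and 1.96 on day 10, beside -0.060, -0.20 and 0.84 at 50 mg/kg. Their part was not tested.

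**Figure D3:**
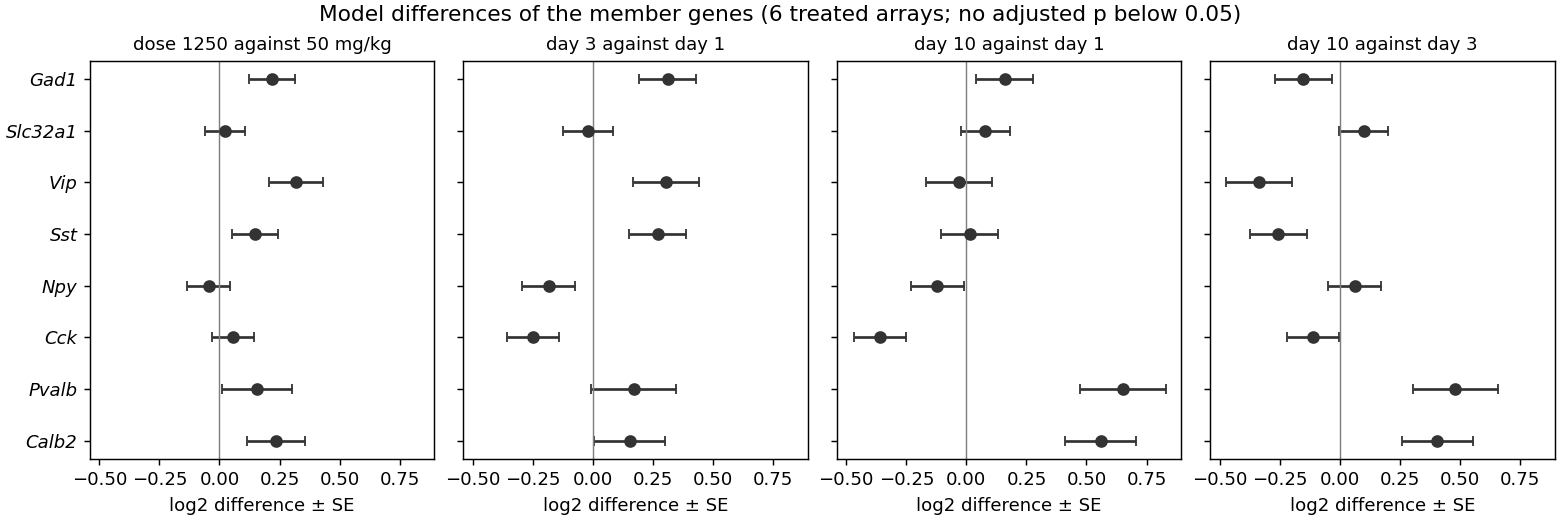
Model difference in log2 intensity with its standard error (horizontal axes) for the 8 measured member genes (rows) in the dose comparison (3 arrays per dose) and the 3 day comparisons (2 arrays per day). The largest are Pvalb (0.65) and Calb2 (0.56) for day 10 against day 1, and none has an adjusted p under 0.05.

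Between days the members parted. From day 1 to day 3, 5 of 8 differences were positive (44.0% of all genes), with Gad1, Vip (0.31 ± 0.14, adjusted p = 0.126) and Sst the largest. From day 3 to day 10 the differences of those 3 were negative, at -0.15 ± 0.12, -0.34 ± 0.14 and -0.26 ± 0.12 (adjusted p of 0.466, 0.139 and 0.190), while those of Pvalb and Calb2 were 0.48 ± 0.18 and 0.41 ± 0.15 (adjusted p of 0.0988 and 0.0962). Over the 7 arrays Gad1, Vip and Sst correlated with each other at 0.766 to 0.856, Pvalb and Calb2 at 0.903, and Npy and Cck at 0.775. Gad1 and Npy ran opposite, at -0.933, and Pvalb had -0.242 with Vip and -0.236 with Sst. These coefficients share 7 arrays and carry no test.

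The genes whose values most resembled each member over the 7 arrays were not genes of inhibitory neurons in the lists used here. Nearest to Gad1 were Aktip (Pearson 0.992), Clip4 (0.985) and Sh3bgrl2 (0.984). Slc32a1 was closest to Gpatch1 (0.980), Strip2 (0.948) and Akap8 (0.944), and Vip to Glrx2 (0.984), Rheb (0.979) and Abhd10 (0.951). For Sst they were Bcas1 (0.993), Chchd10 (0.967) and Dtd1 (0.965). Npy was closest to C1qa (0.986), a complement gene of microglia, which was 0.19 to 0.81 below the control on all 6 arrays, followed by Ethe1 (0.980) and Slc25a45 (0.975). Cck resembled Ssbp4 (0.975), Cenpa (0.974) and Slc52a3 (0.962). Pvalb resembled Inpp5a (0.984), Atp2a3 (0.977) and Litaf (0.972), and of these Atp2a3, which encodes a calcium pump present in Purkinje cells, was 1.42 above the control on day 10 at 1250 mg/kg. Calb2 was closest to Apeh (0.992), Rimkla (0.970) and Cmc1 (0.970). With 7 points, 1 to 20 genes correlated above 0.95 with each member.

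The rest of the GABA pathway was measured in part. With 2 to 5 measured genes in most lists, the counts that follow stand beside 21.1% of all genes for day 3 against day 1, 10.2% for day 10 against day 3, 1.93% for day 10 against day 1 and 0.144% for dose. Of 15 subunits of the GABA-A receptor, the chloride channel opened by GABA, 4 had a value (Gabra3, Gabrb1, Gabrb2 and Gabrd), and 0 passed in any comparison. From day 1 to day 3 the largest differences were -0.29 ± 0.11 for Gabrd (adjusted p = 0.0809) and 0.20 ± 0.15 for Gabrb1 (adjusted p = 0.369). Of 5 genes of the metabotropic GABA-B receptor, Gabbr1 and the auxiliary subunit Kctd12 had a value and 0 passed. Gabbr1 had the larger dose difference, at 0.28 ± 0.10 (adjusted p = 0.902). Of 6 genes of GABA uptake and breakdown 5 had a value and 0 passed. Among them the transporters Slc6a12 and Slc6a13 lay at -0.29 ± 0.13 and -0.28 ± 0.12 from day 1 to day 3 (adjusted p of 0.118 and 0.104). Of 7 genes of the inhibitory postsynapse 4 had a value and 0 passed, with Slitrk3, a synaptic adhesion protein, at -0.28 ± 0.13 and Gphn, the scaffold gephyrin, at 0.11 ± 0.11 from day 1 to day 3.

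Slc12a2, the chloride importer NKCC1, was the 1 measured gene of 2 in the chloride list and was higher on days 3 and 10 than on day 1 (of all genes, 11.1% passed upward from day 1 to day 3 and 1.4% from day 1 to day 10). It read 4.51 on the control, then 4.49 and 4.31 (day 1), 4.82 and 4.83 (day 3) and 5.01 and 4.82 (day 10). The 4 later arrays lay above the control and above both arrays of day 1. The differences from day 1 were 0.43 ± 0.11 on day 3 (adjusted p = 0.0142) and 0.52 ± 0.11 on day 10 (adjusted p = 0.0249). Both calls were lost in the deposited values (0.20, adjusted p = 0.240, and 0.33, adjusted p = 0.121) and after median scaling (0.24, adjusted p = 0.147, and 0.37, adjusted p = 0.0800). With single arrays left out, the day 3 call was lost without the 1250 mg/kg array of day 1 or of day 3 (0.38 and 0.33), and the day 10 call without that of day 1 or either array of day 10 (0.47 to 0.57). Slc12a2 is also expressed by glia and choroid plexus.

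Among 28 further interneuron genes 16 had a value, and 3 rose from day 1 to day 3 (11.1% of all genes passed in that direction and 10% in the other). They were Cnr1, the CB1 cannabinoid receptor (0.86 ± 0.13, adjusted p = 0.000241), Crhbp, which binds corticotropin-releasing hormone (0.68 ± 0.16, adjusted p = 0.00588), and Nxph1, a secreted ligand of neurexins (0.51 ± 0.11, adjusted p = 0.00469). The list as a whole had 7 of 16 differences positive and a median of -0.041, equal to the median of all genes. These 3 and Dlx2, a transcription factor of inhibitory neuron development (-0.50 ± 0.15, adjusted p = 0.0437), fell from day 3 to day 10, Cnr1 by 0.89 ± 0.13 (adjusted p = 0.000292), Crhbp by 0.76 ± 0.16 (adjusted p = 0.00499) and Nxph1 by 0.45 ± 0.11 (adjusted p = 0.0190). Against day 1, 0 of the 16 passed on day 10. Cnr1 read 0.88 on the control, then 0.86 and 0.64 (day 1), 1.53 and 1.68 (day 3) and 0.72 and 0.70 (day 10), so the day 3 arrays stood clear of all others. Of all genes, 6.65% fell from day 3 to day 10. Without the array of day 3 at 1250 mg/kg the differences of Crhbp were 0.31 (adjusted p = 0.313) and -0.39 (adjusted p = 0.259) and that of Dlx2 was -0.22 (adjusted p = 0.611), and Nxph1 had 0.46 (adjusted p = 0.0941) and -0.40 (adjusted p = 0.242). Nxph1 was lost in the deposited values as well (0.32, adjusted p = 0.0593, and -0.39, adjusted p = 0.0567), while Cnr1 kept both calls under every alternative in which it was fitted. With brighter probes only, Cnr1 and Dlx2 were not fitted, as both are dim. The fall of Nxph1 was also lost without the other array of day 3 or either of day 10 (-0.40 to -0.50), and the rise of Crhbp without the array of day 1 at 1250 mg/kg (0.48, adjusted p = 0.0931). Dlx2 was also lost without the array of day 10 at 1250 mg/kg (-0.23, adjusted p = 0.572), with the mean of probes (adjusted p = 0.0635) and with no dose block (adjusted p = 0.0795).

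The receptors and processing genes of the peptides were also measured in part. Of 13 peptide receptors 5 had a value, among them Npy1r, Npy2r and Npy5r for neuropeptide Y and Cckbr for cholecystokinin, and 0 passed. Npy1r had 0.30 ± 0.13 and Cckbr -0.22 ± 0.12 from day 1 to day 3 (adjusted p of 0.103 and 0.185). No receptor of Sst and neither Vipr1 nor Vipr2 had a value. Of 10 genes of peptide processing and storage 7 had a value and 1 was lower on day 3 than on day 1, Chga, the granule protein chromogranin A (-0.45 ± 0.12, adjusted p = 0.0127), beside 10% of all genes. The mean of its probes differed by -0.14 (adjusted p = 0.330), so that call depends on the probe, and it was lost without either array of day 3 (-0.51, adjusted p = 0.0506, and -0.38, adjusted p = 0.190). Scg3, a sorting protein of secretory granules, was the only one of the 7 above the control on all 6 arrays, by 0.20 to 0.69 (0.44 ± 0.16, adjusted p = 0.999). That side was shared on all 6 by 11.1% of all genes.

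The scaling mattered for the direction of several members, and all members but Vip lie in the brightest 10% of genes. In the deposited values the median of the 901 brightest genes was 0.34 and 0.18 below the control on day 3 and 0.24 below it on both arrays of day 10, and it was -0.0090 and 0.098 on day 1, while the median of all genes moved by -0.13 and -0.097 (day 3) and by -0.060 and -0.087 (day 10). Quantile normalization brought the median of the brightest genes to within 0.02 of the control on every array. Relative to the control, Gad1 stayed above and Npy and Cck below on all 6 arrays under either scaling, and Slc32a1, Sst, Pvalb and Calb2 had arrays whose sign turned. Over all genes called between day 3 and day 1, 52.6% were higher on day 3 after quantile normalization, 29.2% in the deposited values and 36.4% after median scaling. Between day 10 and day 1 the shares were 72.4%, 28.1% and 39% in the same order. Across all genes the arrays correlated with the control at 0.982 to 0.996.

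**Figure D4:**
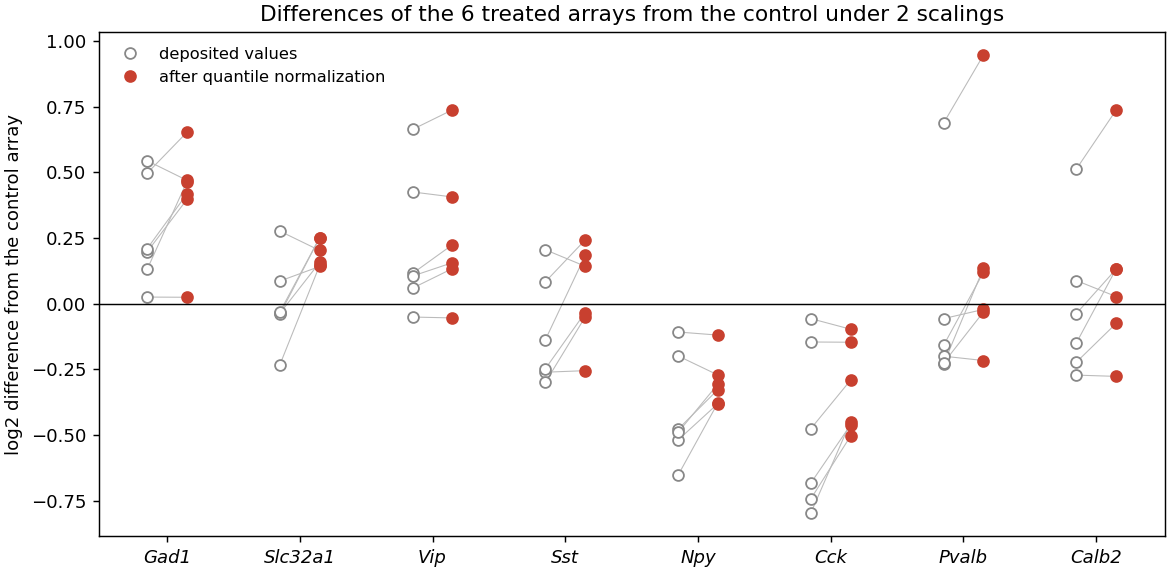
Log2 difference of each of the 6 treated arrays from the control (vertical axis, 1 point per array) for the 8 measured member genes, in the deposited values (open) and after quantile normalization (filled), with lines joining the same array. Gad1 points lie above 0 and Npy and Cck points below 0 in both, and 4 Slc32a1 points cross from below to above 0.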

How the data were processed

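Brain RNA was extracted with TriPure, amplified to biotinylated cRNA with an Ambion kit and hybridized to Illumina bead arrays, per the labels' protocols. The deposited values were taken as log2 intensities. The labels do not state their log base, background step, normalization or rule for blank probes. Values were present on all arrays for 13304 of 25697 probes and on no array for 12393. A table of 7 intensity columns whose names match no sample label was not used. Probe symbols came from the platform annotation, updated by Entrez number through RefSeq (GRCm38.p6): 12150 of the probes with a value had 1 symbol, 0 had several and 1154 had none. For each gene the brightest probe by mean was used. Values were quantile normalized and fitted with limma 3.58.1 in R 4.3.3 (eBayes with an intensity trend), with day as a block for dose and dose as a block for days. Residual degrees of freedom were 2 (prior 14.14) and, for treatment, 5 (prior 5.74), with the spread of the lone control borrowed from the treated arrays. The treatment fit had no block, so that spread holds the differences between days and doses. P-values measure the spread between these arrays, not between animals. With 1 array per day and dose, the dose and day fits have no spread between like arrays. Their 2 residual degrees of freedom hold what adding a day and a dose effect leaves over. A day difference that changes with dose, as for Pvalb, is counted there as spread. The fits were tested on simulated data, with the outcome not given here. The number of arrays limits the precision. Members and lists were chosen with earlier results of these data known. Named genes are the members, the 3 genes most correlated with each, and, from each pathway list, the genes that passed in a comparison or, where none did, those with the largest differences. Alternatives were the deposited values, median scaling, brighter probes only, no trend, the mean of probes, no block, and leaving out arrays.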

Additional observations from a re-analysis of the deposited data

Results flagged for a closer look

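Pvalb on day 10 at 1250 mg/kg (7.17) stood apart from the other 5 treated arrays, with a gap to the nearest of them that was 0.698 of the whole range. Pvalb was also below the control on both arrays of day 1 and above it on both of day 10, a difference of 0.65, which missed the threshold in the day comparison (limma adjusted p = 0.0684). Wherever the control lay, 20.6% of all genes were higher on both day 10 arrays than on both of day 1. Sst was above the control on both arrays of day 3 and below it on both of day 10, a difference of -0.26 (limma adjusted p = 0.190). The share of all genes that separate day 10 from day 3 in this way is not given here. In the deposited values the Sst array of day 3 at 50 mg/kg was below the control and so was the Pvalb array of day 10 at 50 mg/kg, so neither pattern held there. Chance alone sets about 1 in 20 groups of like arrays apart by the gap measure, and 8 genes were looked at. The treated arrays each had their own day and dose, so that rate need not hold for them.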

How the results depend on the processing

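Of 448 refits of member differences, 391 kept their direction and side of the threshold, 26 passed it and 31 turned sign, with no call at the start to lose. In the deposited values and after median scaling, 2 of 8 members passed for day 3 against day 1 (Npy and Cck), beside 2732 and 2484 of all 9009 genes. For day 10 against day 1, 1 passed (Cck), beside 467 and 436 of all genes. With the mean of probes 1 passed in each of these 2 comparisons (Gad1, then Calb2), beside 1886 and 109 of all genes. With brighter probes only, 2 passed for day 10 against day 1 (Pvalb and Calb2), beside 172 of 4978 genes. Without the array of day 10 at 50 mg/kg, a single array was left on that day. The differences of day 10 from day 3 were then -0.59 for Vip, 0.98 for Pvalb and 0.68 for Calb2. Under both other scalings the members past 1.5-fold changed, and the share of all genes past it is not given for those scalings. Npy and Cck met the rule at the lower dose of day 3 (-0.65 and -0.80 in the deposited values). Vip met it at the higher dose of day 3 (0.66), and Cck at the lower dose of day 10 (-0.68). At the higher dose of day 10 it was met by Pvalb and Cck. There Cck was at -0.74 and Calb2 at 0.51 in the deposited values (-0.69 and 0.57 after median scaling). The median of the brightest genes also lay below the control in the deposited values. It was at -0.34 and -0.18 on day 3 and -0.24 on both arrays of day 10. Differences that turned sign in the deposited values, with median scaling second, were for dose Npy (0.010 and 0.011), for day 3 against day 1 Pvalb (-0.10 and -0.061) and Calb2 (-0.094 and -0.055), and for day 10 against day 1 Gad1 (-0.081 and -0.045), Slc32a1 (-0.22 and -0.18) and Sst (-0.25 and -0.21). For treatment they were Sst (-0.11 and -0.076) and, in the deposited values, Pvalb (-0.031) and Calb2 (-0.014). The cause was not tested. With arrays left out the ranges that cross 0 were as follows. For dose, Npy ran from -0.077 to 0.0089 and Pvalb from -0.18 (without day 10) to 0.33. For day 3 against day 1, Slc32a1 ran from -0.048 to 0.0070, Pvalb from -0.092 to 0.43 and Calb2 from -0.18 to 0.48. For day 10 against day 1, Gad1 ran from -0.010 to 0.33, Vip from -0.29 to 0.22 and Sst from -0.17 to 0.20, and for day 10 against day 3 Pvalb ran from -0.022 (without the 1250 mg/kg array of day 10) to 0.98. For treatment, Sst ran from -0.0029 to 0.097, Pvalb from -0.0035 to 0.23 and Calb2 from -0.012 to 0.19, the lowest of the last 2 again without that array. Counts over all genes ranged under the alternatives from 0 to 45 for dose (13 in the report), 798 to 2732 for day 3 against day 1 (1905), 66 to 467 for day 10 against day 1 (174), 386 to 1304 for day 10 against day 3 (921) and 0 to 1 for treatment (0). With 1 array for each day and dose there were no replicates to pair. The only pairing possible was the comparison of doses within days and of days within doses that the report gives.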
